A study of Homo sapiens with 4 samples.

Results

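The ZNF genes of chromosome 19 were examined in TC-71, an established Ewing sarcoma (EWS) cell line, after exposure to exosomes (EXOs) that lacked CD99. A member was a gene whose row on the array carried exactly 1 gene symbol, made of ZNF, a number and at most 1 further letter, and a row name of chromosome 19. There were 241 such genes on 242 rows, among 22085 genes with 1 symbol and 67539 rows in all, and a gene with several rows was represented by the row with the highest mean. The GeneChip Human Transcriptome Array 2.0 was hybridized with RNA from 2 samples of untreated TC-71 cells (replicates A and B) and 2 samples of TC-71 cells given EXOs of CD99-silenced TC-71 cells (CD99neg EXOs, replicates C and D). The exposed cells received 10 µg of EXOs per 5000 cells in serum-free conditions for 24 h. The EXO-producing cells carried a stable short hairpin RNA against CD99, and the recipient cells were not modified. The untreated cells received no EXOs of any kind, so the arrival of EXOs and their lack of CD99 cannot be told apart here. The labels do not give the medium of the untreated cells separately. They call the samples of a group biological replicates.

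ZNF genes encode C2H2 zinc finger proteins, in which short loops held by a zinc ion read DNA bases. Most of those on chromosome 19 belong to the KRAB class, whose KRAB domain recruits the corepressor TRIM28 and, through it, the histone methyltransferase SETDB1, heterochromatin proteins and the NuRD complex. Many KRAB zinc finger proteins bind and silence retrotransposons, and the family grew by repeated tandem duplication, so that the genes lie in clusters of related copies. In EWS the driver is an EWSR1-ETS fusion, and AP-1 (FOS and JUN) and EGR1 are immediate-early transcription factors. These 3 genes were all called lower in the exposed cells, with log2 changes of -1.54 for FOS, -1.10 for JUN and -2.25 for EGR1 (limma, adjusted p = 0.00386, 0.00808 and 0.00284).

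The values were log2 signals after quantile normalization, and each change is the mean of the exposed arrays minus that of the untreated arrays. A gene was called when its fold was at least 1.5 and its adjusted p at most 0.05 in limma, with adjustment over all 67539 rows. The median over all rows lay between 5.38 and 5.45 on the 4 arrays. The 12 listed markers of EWS lines, CD99 and NKX2-2 among them, all lay above the median row signal of 5.43, with NR0B1 called lower and PAPPA called higher. Of 16 measured markers of leukocytes, epithelium, endothelium, muscle and fibroblasts, 9 lay above that signal and 0 were called (limma, 2 higher and 0 lower at an unadjusted p of at most 0.05). Their list median change was 0.01. PTPRC, the pan-leukocyte marker, stood at 4.55, 4.53, 4.54 and 4.54 on A to D, and DCN, a fibroblast proteoglycan, had the largest change of the list at 0.52 (adjusted p = 0.012). LUM, another proteoglycan of fibroblasts, had a change of 0.27 (adjusted p = 0.113), and the fibroblast markers COL1A1 and PDGFRA had changes of 0.01 each. Which of these markers, if any, bears on the ZNF genes was not tested.

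After exposure to CD99neg EXOs, 12 ZNF genes of chromosome 19 rose and 0 fell. The 12 were ZNF814, ZNF134, ZNF738, ZNF749, ZNF460, ZNF776, ZNF17, ZNF543, ZNF551, ZNF772, ZNF529 and ZNF417, with folds of up to 1.86. They made up 4.98% of the 241 members, where 1.13% of all genes with 1 symbol and 1.54% of all rows were called higher, and 0.964% of the genes and 1.04% of the rows were called lower. At an unadjusted p of at most 0.05, 115 members were higher and 3 lower. The share of all genes at this unadjusted p was not counted, here or for the other sets below. A fold of at least 2 called none of the members, beside 257 of the 67539 rows called higher and 164 called lower. An equal-variance test without limma's moderation called none of the members either, and none of the 67539 rows. On the adjusted p alone, at any fold, 56 members (23.2%) were higher and 2 lower, beside 5.84% and 6.98% of all genes with 1 symbol.

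Most members had higher values in the exposed cells. Of the 241 members, 204 (84.6%) had a positive change, beside 52.2% of all genes with 1 symbol and 56.4% of all rows. With each array centred on its median the count was 176 (73%), beside 30.9% of the genes and 33% of the rows. Their median log2 change was 0.11, beside 0.01 over all rows. Both exposed arrays lay above both untreated arrays for 166 members (68.9%) and below them for 15, where 25.9% and 26.6% of all genes with 1 symbol were apart in these directions. The median level of the members was 6.13 on array A and 6.11 on array B, and 6.27 on C and 6.31 on D. Over the members, the change had an SD of 0.19, while A minus B had an SD of 0.093 and C minus D of 0.069. In bulk RNA, a different make-up of the cultures and a different amount of RNA per cell cannot be told apart.

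**Figure D1:**
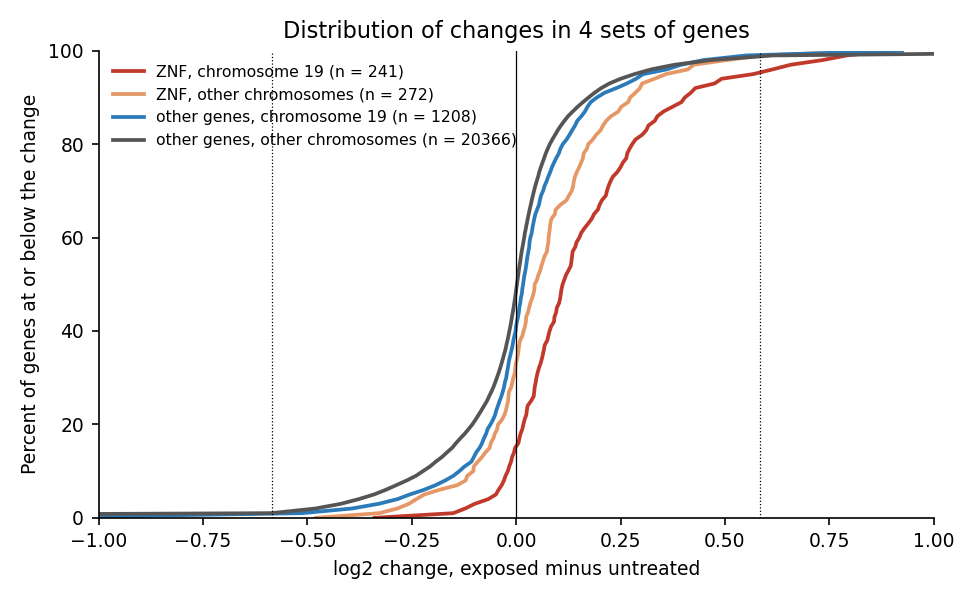
Percent of genes at or below each log2 change (x axis, exposed minus untreated) for 4 sets of genes, with dotted lines at a fold of 1.5. The line of the chromosome 19 ZNF genes lies to the right of the others except at its highest value, with a median of 0.11 against 0.04 for ZNF genes elsewhere and 0.02 for other chromosome 19 genes.

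ZNF genes elsewhere in the genome and other genes of the same chromosome had smaller median changes. Of 272 ZNF genes on other chromosomes, 3 rose, ZNF423 (0.87), ZNF33B (0.69) and ZNF75A (0.65), and 0 fell (limma, 77 higher and 20 lower at an unadjusted p of at most 0.05). Their median change was 0.04, and 181 (66.5%) were positive. Of 1208 other genes on chromosome 19, 8 were called higher and 7 lower, with a median of 0.02. The difference between these sets was not tested, since genes of 1 array are not replicates.

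ZNF814 and ZNF134 had the largest changes. ZNF814 stood at 6.19 and 6.37 on the untreated arrays and at 7.19 and 7.15 on the exposed arrays, a log2 change of 0.90 (SE 0.071, limma, adjusted p = 0.0079). ZNF134 stood at 7.19 on both untreated arrays and at 8.04 and 8.07 on the exposed arrays, a change of 0.86 (SE 0.037, adjusted p = 0.0039). In both genes the groups did not overlap, and the untreated arrays of ZNF814 lay farther apart than those of ZNF134. ZNF738 rose from 7.74 and 7.87 to 8.62 and 8.58 (change 0.80). ZNF749 rose from 6.14 and 6.11 to 6.89 and 6.94 (change 0.79). ZNF460 rose from 7.97 and 7.99 to 8.74 and 8.69 (change 0.73). ZNF460 was also among the 5 members with the highest mean, and in each of these 3 genes the lowest exposed array exceeded the highest untreated one. The calls were made on the same arrays, so such separation of called genes is no further support.

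The other 7 called genes had changes from 0.73 to 0.59. ZNF776 rose from 6.27 and 6.37 to 7.03 and 7.09 (change 0.73), and ZNF543 from 6.47 and 6.34 to 7.11 and 7.03 (change 0.66). ZNF551 rose from 6.06 and 6.08 to 6.66 and 6.74 (change 0.63). ZNF772 rose from 5.41 and 5.40 to 5.99 and 6.06 (change 0.62). The adjusted p of the 12 called genes ranged from 0.0039 to 0.0116, and the largest SD between the 2 arrays of a group was 0.13, for untreated ZNF814.

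The calls of ZNF17, ZNF529 and ZNF417 depended on single arrays. ZNF17, at 6.04 and 6.21 untreated and 6.78 and 6.81 exposed, had a change of 0.67, which was 0.58 without untreated array A, just under the fold of 1.5. ZNF529, at 6.19 and 6.28 against 6.85 and 6.84, had a change of 0.61, or 0.57 without array A. ZNF417, a KRAB zinc finger gene known for silencing the HERV-K family of endogenous retroviruses, stood at 6.66 and 6.67 untreated and at 7.18 and 7.32 exposed, a change of 0.59. It was not called without A, B or D (adjusted p = 0.0588, 0.0603 and 0.0302, with a change of 0.52 without D). ZNF587, a close relative of ZNF417 with the same known target, has no row of its own on the array. Probe sequences were not analysed here, so signal shared between near-identical ZNF genes cannot be separated, although no member had the same values as another row.

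**Figure D2:**
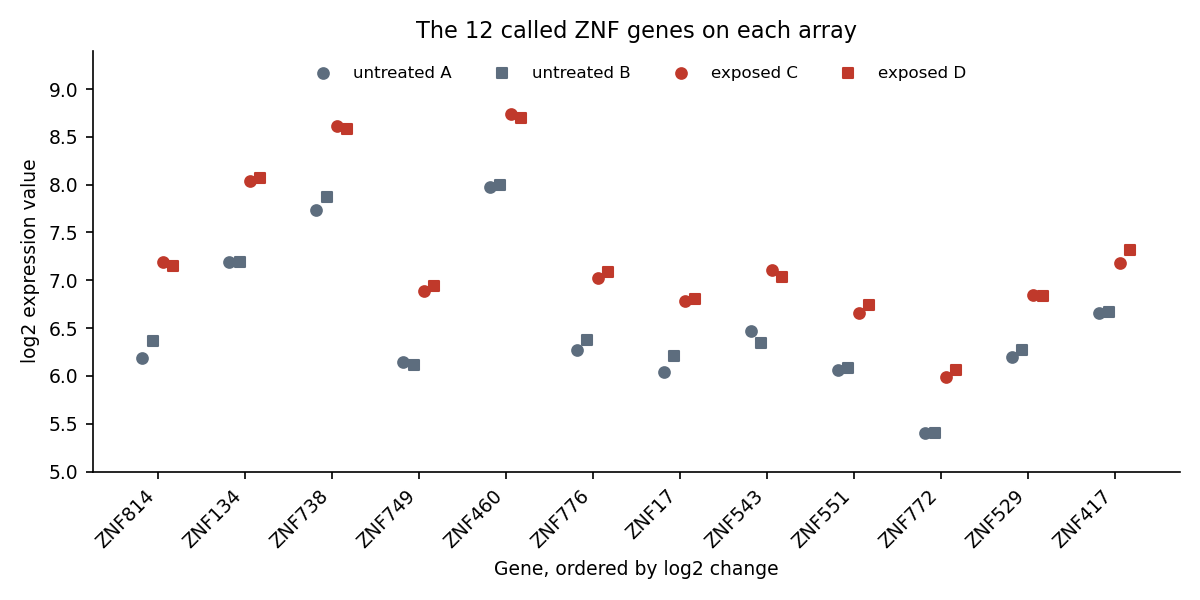
log2 expression value (y axis) of the 12 called ZNF genes on untreated arrays A and B (grey) and exposed arrays C and D (red), ordered by change. Both exposed points lie above both untreated points for every gene shown, from a change of 0.90 for ZNF814 to 0.59 for ZNF417. The genes were called on these same arrays, so the separation is no further support.

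Around the fold threshold the values ran on without a gap. The 3 genes just inside it were ZNF417 (0.59), ZNF529 (0.61) and ZNF772 (0.62), and the 3 just outside among those with an adjusted p of at most 0.05 were ZNF350 (0.57), ZNF586 (0.50) and ZNF649 (0.49). ZNF350, also known as ZBRK1, is a KRAB repressor that works with BRCA1, and ZNF649 is a KRAB protein described as a repressor of serum response element and AP-1 reporters. ZNF350 stood at 5.69 and 5.65 untreated and at 6.24 and 6.24 exposed (adjusted p = 0.0061). ZNF649 stood at 6.20 and 6.27 untreated and at 6.78 and 6.69 exposed (adjusted p = 0.0127). Both had groups that did not overlap, and neither reached the fold.

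Downward changes were few and small. ZNF730 had the lowest change, from 6.99 and 7.06 on the untreated arrays to 6.64 and 6.74 on the exposed ones (change -0.34, adjusted p = 0.0301). ZNF558, a KRAB gene known as a repressor of SPATA18 in human neural progenitors, stood at 7.03 and 7.07 untreated and at 6.80 and 6.84 exposed (change -0.23, adjusted p = 0.0429). These 2 genes were the ones that passed the adjusted p downward, and neither reached the fold. The next 8, ZNF600, ZNF581, ZNF878, ZNF486, ZNF507, ZNF30, ZNF627 and ZNF844, had changes from -0.16 to -0.07 and adjusted p above 0.1.

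ZNF91, ZNF93 and ZNF274, named for their known roles in silencing, were not called and did not pass the adjusted p. ZNF91, which silences SVA elements, had a change of 0.05 (adjusted p = 0.85), and ZNF93, which silences a class of L1 elements, of 0.11 (adjusted p = 0.437). ZNF274, which brings SETDB1 to the ends of other ZNF genes, stood at 6.64 and 6.57 untreated and at 6.69 and 6.66 exposed (change 0.07, adjusted p = 0.514). The members with the highest mean were ZNF146, ZNF358, ZNF579, ZNF724P and ZNF460, and apart from ZNF460 their changes lay between 0.09 and 0.20, with none called.

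Calls lay among the brighter members. All 12 called genes were among the 187 members at or above the median row signal, and 0 of the 54 members below it were called (limma, 8 of them higher at an unadjusted p of at most 0.05). The median change was 0.14 in the brighter members and 0.04 in the dimmer ones. Brighter genes that are no members had a median change of 0.00, and 1.45% of 15540 were called higher. These were 226 of the 250 genes with 1 symbol called higher, so few calls lay among dimmer genes of any kind. The share called among dimmer genes that are no members was not counted. The split used the mean over all 4 arrays, and ZNF772, at 5.41 and 5.40 untreated, lay above it only through its exposed arrays.

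**Figure D3:**
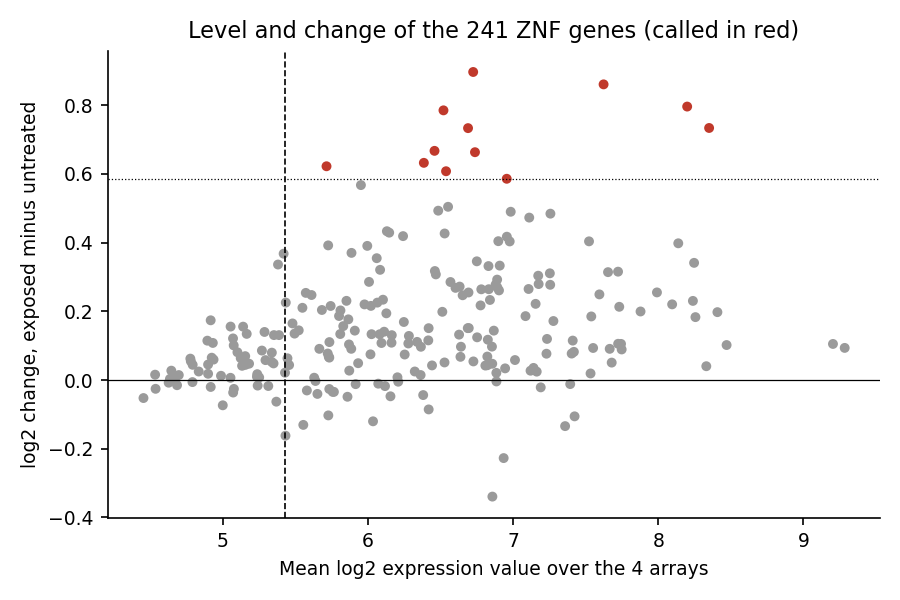
Mean log2 value over the 4 arrays (x axis) and log2 change (y axis) of each of the 241 members, with the median row signal as a dashed line and the fold of 1.5 as a dotted line. The 12 called genes, in red, all lie to the right of the dashed line, and the 54 members to its left have a median change of 0.04.

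The called genes were not spread evenly along the chromosome. Members were ordered by their place among RefSeq genes and split into runs, in which at most 10 other protein-coding genes separate neighbours. This gave 18 runs, 5 of them with 1 member. The last run, from ZNF787 to ZNF446 near the end of the long arm, held 50 members and 10 of the 12 called genes, with a median change of 0.24 and 49 positive changes. The 24 other genes lying in that run had a median of 0.02, with 0 called and 4 higher on the adjusted p alone. The other 191 members held 2 called genes, ZNF738 and ZNF529, and had a median of 0.10. Allowing 5 genes between neighbours in place of 10 left 40 members in the last run, from ZNF264 to ZNF446, with the same 10 called. Allowing 20 gave 57 members, again with 10 called, but this run contains the whole run of 50, so its count could not fall.

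The other large runs had smaller medians. The run from ZNF414 to ZNF846 (13 members) had a median change of 0.20 and 0 called, with ZNF426 highest at 0.48 and ZNF558 lowest at -0.23. The run from ZNF653 to ZNF791 (27 members) had a median of 0.05, that from ZNF101 to ZNF507 (38 members, ZNF738 called) of 0.09, and that from ZNF565 to ZNF573 (25 members, ZNF529 called) of 0.13. Medians of 0.14 and 0.08 were found from ZNF575 to ZNF180 (21 members) and from ZNF175 to ZNF331 (38 members), with no member called. Genes that are no members in these runs had medians of 0.03, -0.01, 0.00, 0.27, 0.04 and 0.01, in the order named. Of the 6 such genes from ZNF565 to ZNF573, 4 were higher on the adjusted p alone and 0 were called. XRCC1, in the run from ZNF575 to ZNF180, was called higher. No run of more than 1 member had a negative median, although with at most 5 genes between neighbours a run of 2 members, from ZNF536 to ZNF507, had one of -0.06.

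**Figure D4:**
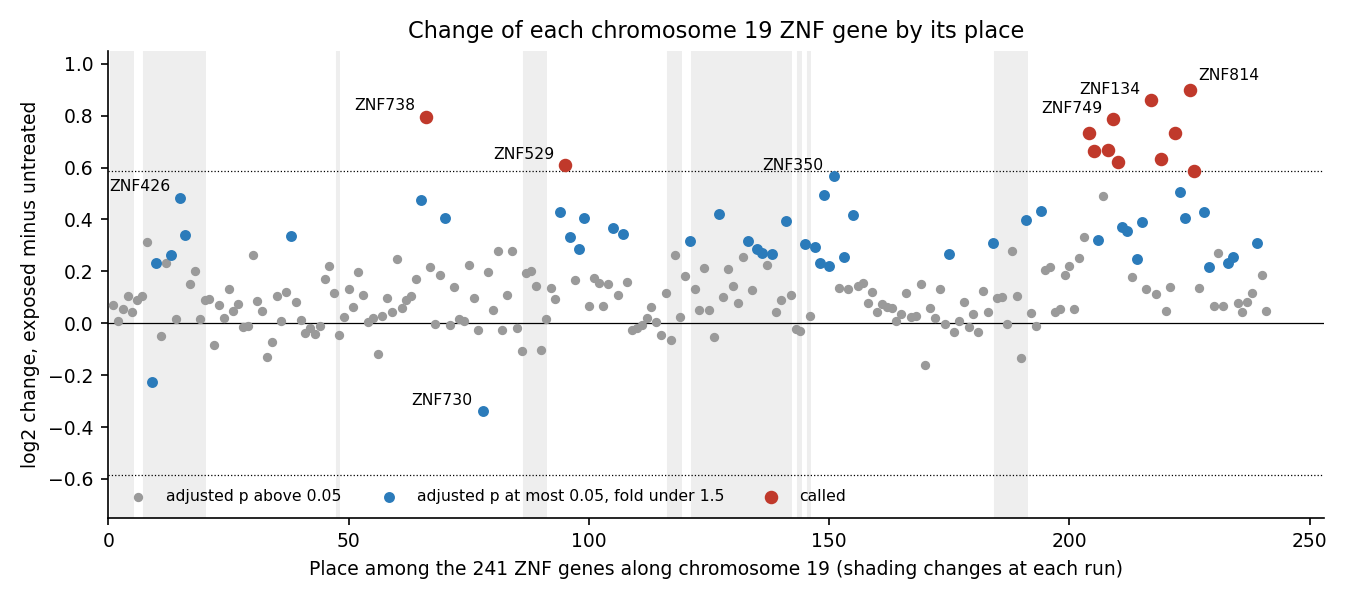
log2 change (y axis) of each member by its place among the 241 members along chromosome 19 (x axis), with shading that alternates between runs and dotted lines at a fold of 1.5. Of the 12 called genes (red), 10 lie in the last run, and ZNF738 and ZNF529 lie alone in other runs.

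Within the last run, all 10 called genes lay in a stretch of 23 members from ZNF460 to ZNF417, whose limits were set by the calls themselves. All 23 had a positive change with both exposed arrays above both untreated ones, as had 25.9% of all genes with 1 symbol. On the adjusted p alone 17 were higher, beside 5.84% of those genes, and the median change was 0.49. The 10 called genes are among these 17 by definition. The 27 members of the run outside it had a median of 0.19, with 6 higher on the adjusted p alone. The 4 other genes measured inside the stretch had a median of 0.22, with 0 called and 2 higher on the adjusted p alone. ZIK1, itself a zinc finger gene, stood at 5.18 and 5.20 untreated and at 5.60 and 5.58 exposed (limma, change 0.40, adjusted p = 0.0104). FKBP1AP1 stood at 6.46 and 6.56 untreated and at 6.87 and 6.87 exposed (limma, change 0.36, adjusted p = 0.021). ZSCAN4 and VN1R1, with means of 4.60 and 4.54, lay below the median row signal of 5.43 and had changes of 0.01 and 0.08. Of the 9 called genes of the stretch with a listed strand, 7 were among the 14 stretch members on the plus strand and 2 among the 6 on the minus strand.

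Neighbours within the stretch differed in size of change. ZNF304, between ZNF543 and ZNF548, stood at 5.94 and 5.91 untreated and at 6.24 and 6.25 exposed (change 0.32, adjusted p = 0.0153). ZNF548 had a larger change of 0.49 and an adjusted p of 0.0782, since its untreated arrays stood at 6.89 and 6.59. ZNF154, between ZNF551 and ZNF671, stood at 4.88 and 4.88 untreated and at 4.92 and 4.93 exposed (change 0.05). ZNF154 was the dimmest member of the stretch. ZNF418, the member after ZNF417, stood at 5.45 and 5.40 untreated and at 5.57 and 5.55 exposed (change 0.14, adjusted p = 0.137).

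The promoter windows of 6 genes of this region are printed here for short words that are rare in other promoters, none of which is in all 6. They also set called genes beside uncalled neighbours. Each runs 5′ to 3′ on the gene's strand, from 250 bases before to 50 bases after the RefSeq start (GRCh38.p14). Capitals mark the words AACTACAT, GCCAATGA, GGACTTCC and CCATTTTG, which were picked after the values had been seen. ZNF814 (chr19:57888988-57889287, minus strand), ZNF134 (chr19:57613992-57614291, plus strand), ZNF772 (chr19:57477517-57477816, minus strand) and ZNF551 (chr19:57681727-57682026, plus strand) were called, and ZNF154 (chr19:57709155-57709454, minus strand) and ZNF418 (chr19:57935353-57935652, minus strand) were not.
ZNF814: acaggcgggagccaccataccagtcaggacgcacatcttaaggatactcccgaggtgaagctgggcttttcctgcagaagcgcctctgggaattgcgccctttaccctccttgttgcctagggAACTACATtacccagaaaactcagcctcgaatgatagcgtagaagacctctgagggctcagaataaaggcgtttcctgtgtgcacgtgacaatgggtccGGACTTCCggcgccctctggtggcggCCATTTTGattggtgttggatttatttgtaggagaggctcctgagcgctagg
ZNF134: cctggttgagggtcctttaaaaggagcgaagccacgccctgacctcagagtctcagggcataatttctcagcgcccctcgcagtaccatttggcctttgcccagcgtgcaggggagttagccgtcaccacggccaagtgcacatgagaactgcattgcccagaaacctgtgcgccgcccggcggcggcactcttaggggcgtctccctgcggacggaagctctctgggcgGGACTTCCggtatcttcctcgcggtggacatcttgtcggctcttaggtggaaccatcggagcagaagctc
ZNF772: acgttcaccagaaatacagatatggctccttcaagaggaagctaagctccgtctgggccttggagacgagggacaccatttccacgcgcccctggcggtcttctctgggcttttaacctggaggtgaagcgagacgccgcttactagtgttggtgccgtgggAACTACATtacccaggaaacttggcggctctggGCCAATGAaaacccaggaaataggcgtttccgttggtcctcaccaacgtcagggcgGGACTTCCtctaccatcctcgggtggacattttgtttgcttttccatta
ZNF551: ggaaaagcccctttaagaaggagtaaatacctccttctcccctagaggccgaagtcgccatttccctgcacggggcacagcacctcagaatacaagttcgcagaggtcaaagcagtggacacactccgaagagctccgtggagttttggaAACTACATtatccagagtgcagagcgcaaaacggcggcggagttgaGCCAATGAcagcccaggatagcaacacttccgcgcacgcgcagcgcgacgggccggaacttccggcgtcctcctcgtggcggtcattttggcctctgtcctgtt
ZNF154: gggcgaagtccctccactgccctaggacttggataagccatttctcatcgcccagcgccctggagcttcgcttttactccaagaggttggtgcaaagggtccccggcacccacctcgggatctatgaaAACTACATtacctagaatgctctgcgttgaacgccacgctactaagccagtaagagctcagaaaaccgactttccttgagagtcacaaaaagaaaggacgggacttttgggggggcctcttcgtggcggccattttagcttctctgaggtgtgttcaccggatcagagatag
ZNF418: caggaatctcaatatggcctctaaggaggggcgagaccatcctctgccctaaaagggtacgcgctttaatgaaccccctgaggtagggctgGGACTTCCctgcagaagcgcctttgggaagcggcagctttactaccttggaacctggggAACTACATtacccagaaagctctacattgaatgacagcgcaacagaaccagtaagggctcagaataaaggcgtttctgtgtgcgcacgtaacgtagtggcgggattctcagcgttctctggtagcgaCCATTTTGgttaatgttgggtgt

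A promoter window was listed for 205 of the 241 members and 10 of the 12 called, all but ZNF738 and ZNF417. The word GGACTTCC, on either strand, was in 23 of the 205 windows (11.2%) and in 2% of all 27305 promoter windows. Of those 23 members, 21 lay in the last run, where 45 windows were listed. In 18 of the 21 the word lay on the gene's own strand and began between 40 bases before and 1 base after the start, as in ZNF134 (20 bases before) and ZNF772 (1 base after). In ZNF418 it began 159 bases before the start, and ZNF551, ZNF749 and ZNF154 did not have it.

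In the last run, members with GGACTTCC had a median change of 0.39 with 7 of 21 called, and those without it 0.15 with 2 of 24 called. All of these calls lay in the stretch from ZNF460 to ZNF417, where 14 of 20 windows had the word. In that stretch 7 of the 14 with it (median 0.56) and 2 of the 6 without it (median 0.25) were called. Having the word and lying in the stretch thus overlapped, and the 2 were not separated. These are descriptions of copies that share ancestry and words chosen with the values in view, and no test was made. Outside the last run 2 members had the word, ZNF730 and ZNF599, with a median of -0.10. Among genes that are no members, 328 had it, with a median change of -0.01 and 3 called higher. AACTACAT was in 22 member windows and 0.894% of all windows, 16 of them in the last run with a median of 0.38, against 0.22 for the last-run members without it. GCCAATGA was in 14 member windows and CCATTTTG in 7, beside 1.83% and 1.62% of all windows.

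**Figure D5:**
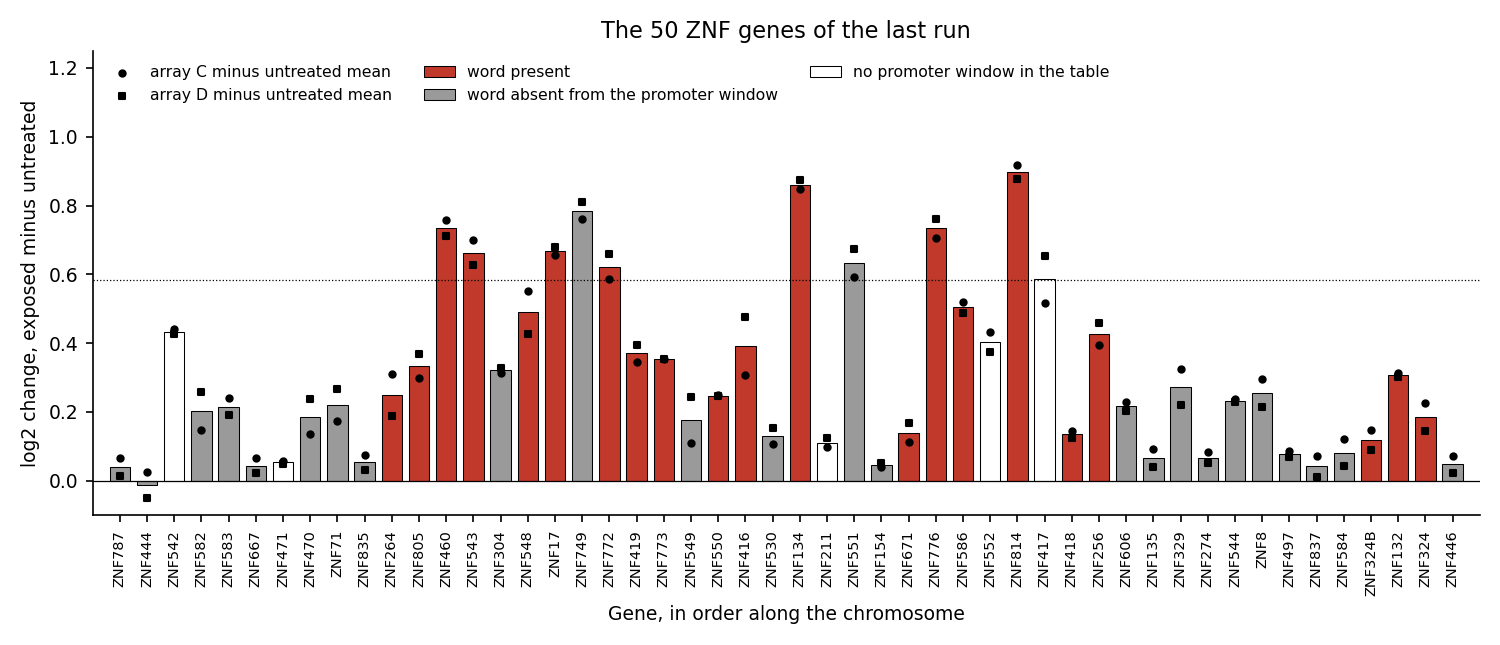
log2 change (bars, y axis) of the 50 members of the last run in order along the chromosome, coloured by whether the promoter window holds the word GGACTTCC, with each exposed array minus the untreated mean as a point. The 21 members with the word have a median change of 0.39, and ZNF749 and ZNF551 are called without it.

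Words known as binding motifs were counted in the same windows. The AP-1 word TGANTCA was in 13 member windows (6.34%, beside 7.76% of all windows), of which ZNF460 was called, and the cyclic AMP response word TGACGTCA was in 6 (2.93%, beside 1.98%), of which ZNF543 was called. The EGR word GCGTGGGCG was in 3 members, none called (0.784% of all windows). The ETS word CCGGAAG was in 92 member windows (44.9%, beside 10.7%), and the GC box GGGCGG in 141 (68.8%, beside 44.6%). ZNF genes on other chromosomes had CCGGAAG in 36.4% and GGGCGG in 59.3% of their 214 windows. Genes with 1 symbol that are no members had them in 13.5% and 57.8%. The median change of members with and without the word was 0.14 and 0.11 for CCGGAAG, 0.10 and 0.17 for GGGCGG, 0.30 and 0.12 for TGACGTCA, 0.08 and 0.13 for TGANTCA, and 0.14 and 0.12 for GCGTGGGCG. Of the 6 members with TGACGTCA, 5 lay in the run from ZNF414 to ZNF846, whose median change was 0.20, so the word and the run cannot be told apart. With any listed start of a gene in place of the first, TGACGTCA was in 7 members, of which 2 were called. All words were searched on both strands. A word of other runs, TCCAATCA, again noticed after the values were seen, was in 51 member windows (24.9%, beside 1.61% of all windows) and in none of the last run, and 0 of these 51 genes were called (limma, 17 higher and 1 lower at an unadjusted p of at most 0.05), beside 1 of the 109 members before the last run whose window lacks it. The median GC share of the windows was 60% for members, 57% for called members and 58.3% for all windows.

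Genes of the KRAB corepressor machinery were mixed in direction. Of 29 genes listed for it, 28 were measured, all but CBX5, and the list includes ZFP57, itself a KRAB zinc finger gene. Of the 28, 0 rose and 1 fell (limma, 6 higher and 9 lower at an unadjusted p of at most 0.05), with a median change of -0.07. The gene that fell was FAM208A, now TASOR, the scaffold of the HUSH silencing complex, at 7.23 and 7.40 untreated and 6.64 and 6.76 exposed (change -0.61, adjusted p = 0.019). The other measured HUSH genes, MPHOSPH8 and PPHLN1, had changes of -0.08 and -0.03, with adjusted p of 0.647 and 0.906. TRIM28 itself stood at 10.69 and 10.74 untreated and at 11.10 and 11.03 exposed (change 0.35, adjusted p = 0.0209), under the fold of 1.5. SETDB1, which TRIM28 recruits, had a change of -0.06 (adjusted p = 0.543).

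On the adjusted p alone, 4 corepressor genes were higher and 4 lower. Besides TRIM28, the higher ones were the histone demethylase KDM4A (0.41), the NuRD helicase CHD3 (0.37) and the methylation reader UHRF1 (0.23). Besides FAM208A, the lower ones were the NuRD helicase CHD4 (-0.35), the demethylase KDM1A (-0.34) and the DNA methyltransferase DNMT3B (-0.33). CHD3 and CHD4, which take the same place in the NuRD complex, thus had changes of opposite sign. The remaining listed genes, CBX1, CBX3, ATF7IP, HDAC1, HDAC2, DNMT1, DNMT3A, ATRX, DAXX, MORC2, MORC3, SUMO2, SUV39H1, SUV39H2, EHMT1, EHMT2 and ZFP57, had changes from -0.24 to 0.18 and adjusted p above 0.05.

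Zinc finger genes of chromosome 19 with names other than ZNF mostly had positive changes below the fold of 1.5. Of 22 measured, 0 were called (limma, 9 higher and 0 lower at an unadjusted p of at most 0.05), 5 were higher on the adjusted p alone and the median change was 0.08. The 5 were ZIK1 (0.40), ZFP28 (0.32), ZFP14 (0.32), MZF1 (0.28) and ZFP30 (0.24). In addition, 7 rows of chromosome 19 carried several symbols with a ZNF gene among them, of which 1 was called higher. They name no single gene and were left out of the counts.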

How the data were processed

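Total RNA of 4 TC-71 cultures was hybridized to 1 array each. In GeneSpring, the authors used ExonRMA16 summarization and quantile normalization and deposited log2 values, which entered the fit unchanged. The array's genome build was not given in the sources used here. Rows were named from the platform table: 23383 of 67539 had exactly 1 symbol, 1225 several and 42931 none. RefSeq (GRCh38.p14) gave gene order, matching 236 members by symbol and 5 by an older symbol, and promoter windows. No protein sequences were used.

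Groups were compared with limma 3.58.1 (lmFit, eBayes, R 4.3.3), with 2 residual and 2.59 prior degrees of freedom, and the functions were tested on simulated data. Precision is limited by the number of arrays. Named genes were all called members, the 10 largest changes each way, the 5 brightest, those nearest the fold threshold, ZNF genes with known chromatin roles, the corepressor list and FOS, JUN and EGR1. ZNF304, ZNF548, ZNF154, ZNF418, ZNF599 and the genes named outside these rules were chosen after their values were seen, as were the stretch and the promoter words not named as motifs. Members and lists were chosen with earlier results of these data known. Alternatives changed the variance model, scaling, filters and thresholds, and left out each array.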

Additional observations from a re-analysis of the deposited data

How the results depend on the processing

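No paired analysis was possible because the 2 groups have different replicate letters (A and B, C and D). Of 124 recomputed counts and medians, 110 stayed within 1.5 times the count, or within the spread between arrays for the median (SD 0.0229). These 110 include counts of calls lower that stayed at 0: 16 for members, 19 for the last run and 16 for ZNF genes elsewhere. They also include medians under other variance models, other thresholds and removal of identical rows, none of which can alter the median change. Taking the row with the lowest mean could alter little, with 242 rows for 241 members. An equal-variance test without moderation called 0 members, 0 in the last run and 0 ZNF genes elsewhere (limma with moderation called 12, 10 and 3). It called 0 of all 67539 rows, so these counts are not particular to the ZNF genes. At its unadjusted p of at most 0.05, 87 members were higher and 3 lower. A fold of at least 2 also called 0, 0 and 0 higher, since the largest fold of a member was 1.86. Over all 67539 rows it called 257 higher and 164 lower. A fold of at least 1.2 called 47 members higher and 1 lower, 19 higher in the last run, and 29 higher and 6 lower among ZNF genes elsewhere, and the 12 called members were among the 47. Over all 67539 rows this fold called 3209 higher and 2520 lower. The median change of the members was 0.068 with arrays centred on their medians, 0.078 with centring on reference genes, which both lowered the median of all rows (-0.0333 and -0.0233), and 0.14 with dim rows left out, which removed 54 members.

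Scaling moved the genes nearest the threshold: ZNF417 was lost in all 4 scalings, ZNF529 in 3 and ZNF772 in 2, and an adjusted p of at most 0.01 lost ZNF17, ZNF417 and ZNF543. Leaving out 1 array gave 10 to 12 members called higher and 0 lower, with ZNF548 gained without A, 9 to 10 called in the last run, 2 to 4 higher and 0 lower among ZNF genes elsewhere, and a median of 0.11 to 0.13. Counting only members at or above the median row, an alternative chosen after seeing the data, had to give the same 12, since all of them lie there. Taking any listed start in place of the first, also added later, left GGACTTCC in 23 members and put TGACGTCA in 7 in place of 6, with 2 called in place of 1.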
